A study of Mus musculus with 9 samples.

Results

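The genes described here are Igf1, a growth factor of the insulin-like growth factor (IGF) system, its receptor gene Igf1r, and 6 of the genes for secreted IGF-binding proteins, Igfbp2 to Igfbp7. Their 19 probe sets were found through the gene symbol of the array annotation, each paired with exactly 1 symbol, among 22690 probe sets in all. They are 8 of the 12393 genes with such a symbol on the array. The genes were selected on symbols and with the differences between these same arrays known, and all 3 comparisons below are counted as used in that choice, so their levels and differences are given as a description, without p-values.

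The samples were 3 epithelia dissected from wild-type mouse kidneys of strain 129 at E14.5 (Theiler stage 22), with embryos of unknown sex. The renal vesicle is the first epithelial ball of a nephron, the s-shaped body follows it when the ball folds, and the collecting duct is the urine-draining tree derived from the ureteric bud. Each structure had 3 Affymetrix MOE430A arrays with 1 sample per array, and each sample went through 2 rounds of T7 amplification. Each nephron sample pooled 20 structures, whereas the labels give a pool size of 1 for each collecting duct sample and do not say which samples came from separate embryos. The p-values below therefore measure the spread between these samples. The lists of markers and of other pathway genes were drawn up with earlier results of these data known. Their p-values and counts describe these arrays and are not independent tests.

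IGF1 and IGF2 signal through the receptor tyrosine kinase IGF1R, while IGF2R takes up IGF2 and carries it to lysosomes. The IGF-binding proteins hold the ligands outside the cell, where they can keep them from the receptor, store them in the matrix or release them when a protease cuts the binding protein. In the developing kidney this system is known for supporting growth of the organ.

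Values are deposited intensities, which are linear, with nearly equal trimmed means on all arrays. Differences are in log2 units after a pseudocount of 26 was added and the arrays were quantile normalized, so the folds of dim genes are understated. Each gene was represented by its brightest probe set among those that exceeded the array median on 3 or more arrays. An intensity was measured on 1 probe set and cannot be set against that of another gene.

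The IGF-binding protein genes did not share 1 order of structures. Igfbp4 was bright in both nephron structures, Igfbp5 was brightest in the collecting duct, and Igfbp3 was bright in the s-shaped body alone. Igfbp7 was highest in the s-shaped body, Igfbp2 in the renal vesicle, and Igf1, Igf1r and Igfbp6 had their highest means in the s-shaped body.

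**Figure D1:**
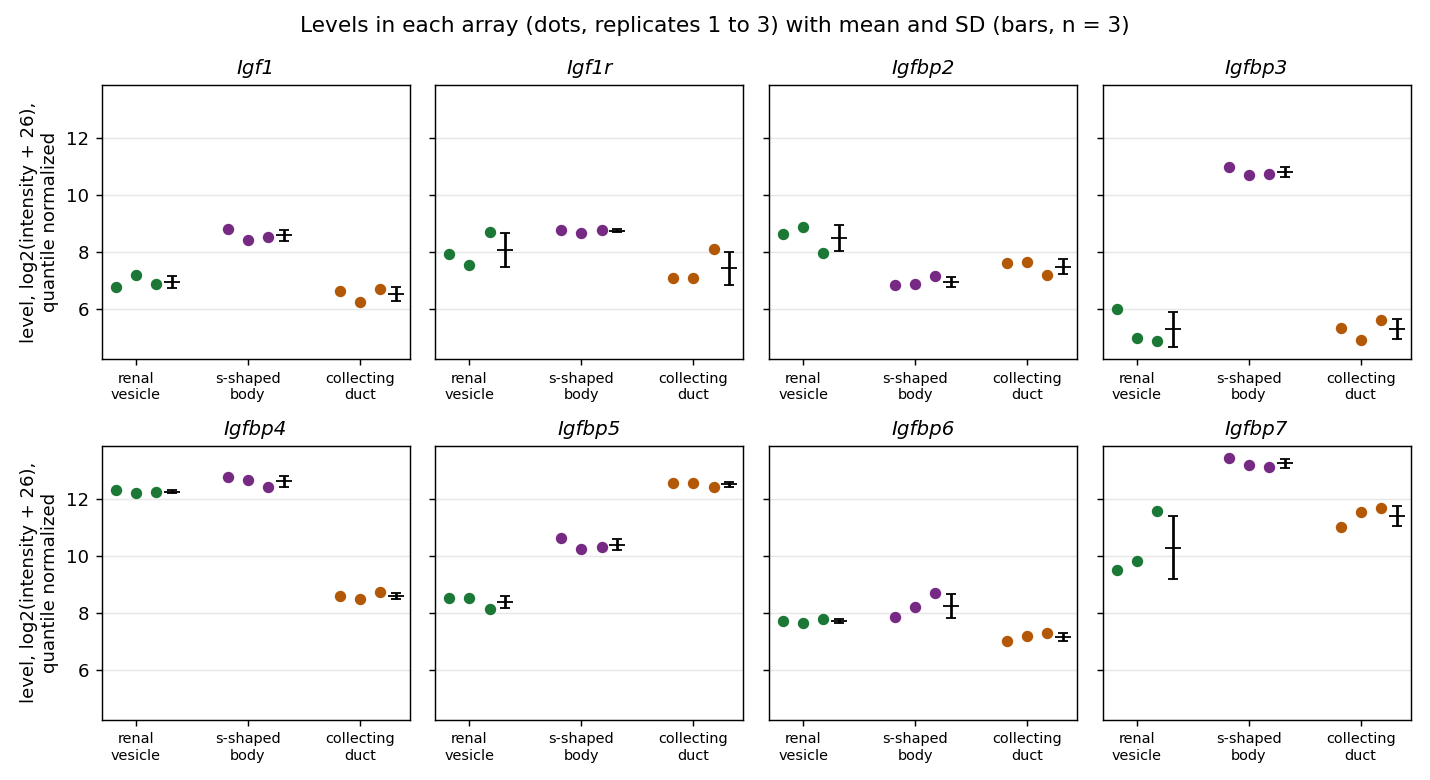
Each panel plots 1 gene, with its quantile-normalized log2(intensity + 26) in every array (dots) and the mean and SD of each structure (bars, n = 3); panels are not to be compared with each other in height. Igfbp3 stands at 10.81 in the s-shaped body and 5.30 (mean, log2) in each other structure, Igfbp5 steps up from renal vesicle to s-shaped body to collecting duct, and Igfbp7 has 1 renal vesicle array far above the others.

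The stretches just before the start sites of the 4 genes with the widest spread between structures are shown to let a reader see what sequence lies upstream of each. They are the 80 bases before the start in the RefSeq tables of assembly GRCm38.p6, read 5′ to 3′ on the gene's strand, with a match on that strand to TATANA (any base at N), to the variant spelling TATTTA or to the GC box GGGCGG in capitals.
Igfbp3: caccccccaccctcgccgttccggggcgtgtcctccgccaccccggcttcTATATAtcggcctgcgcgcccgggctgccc
Igfbp4: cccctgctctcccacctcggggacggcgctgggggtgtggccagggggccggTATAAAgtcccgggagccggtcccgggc
Igfbp5: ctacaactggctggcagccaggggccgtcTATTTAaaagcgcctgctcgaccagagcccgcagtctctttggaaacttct
Igfbp7: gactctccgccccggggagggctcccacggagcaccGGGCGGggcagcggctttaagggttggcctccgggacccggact
The windows lie at chr11:7213924-7214003 (minus strand) for Igfbp3, chr11:99041164-99041243 (plus strand) for Igfbp4, chr1:72874866-72874945 (minus strand) for Igfbp5 and chr5:77408046-77408125 (minus strand) for Igfbp7. The motifs were chosen after the sequences had been seen. Searched on both strands, TATANA was in 7.98% of 32851 windows of the same length, TATTTA in 3.81% and GGGCGG in 22.1%. All 8 genes had an entry, with 9 windows because Igfbp2 has a pair, and TATANA was in 2 of the 9, TATTTA in 1 and GGGCGG in 3. The matches are a description of these letters. Igfbp2 and Igfbp5 are neighbouring protein-coding genes on chromosome 1 in the RefSeq table, and Igfbp3 lies next to Igfbp1 on chromosome 11.

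Summed markers of each structure were highest in the structure of that label, although single markers did not all follow the sum. For the renal vesicle list, with 9 of 10 genes on the array, the sum was 23640 to 25150 under its own label and at most 4383 elsewhere. For the s-shaped body list, with 8 of 11 on the array, it was 43270 to 50820 under its own label and 435.7 to 707.6 in the duct. Podxl (19490 to 25440) and Ptpro (11030 to 12540), both genes of podocytes, made up most of that sum. The share of podocytes in the s-shaped body arrays was not tested. Of the 8 markers of this list that were tested, 6 were higher and 2 lower there than in the renal vesicle (adjusted p under 0.05, limma), and 5 had higher levels at the vesicle stage than in the duct. Of these 8, Nphs1 and Ptpro passed the filter only through the s-shaped body arrays (above the array median on fewer than 3 of the others). Of the 6 others 4 were higher in the s-shaped body than in the renal vesicle. The 2 lower ones, Cdh6 and Irx1, passed only through the renal vesicle arrays, and of the 6 others 4 were higher at the vesicle stage than in the duct. Of 11 tested collecting duct markers 7 were lower in the renal vesicle than in the duct and 2 were higher, and 6 were lower and 0 higher in the s-shaped body than in the duct. Of these 11, 4 passed the filter only through the duct arrays, and of the 7 others 4 were lower in each nephron structure. The 2 that were higher in the renal vesicle passed only through the renal vesicle arrays. Renal vesicle replicate 3 had 11210 on the s-shaped body sum, against 4397 and 3463 in replicates 1 and 2. It had 3070 on the sum of 13 collecting duct markers, against 10720 and 14880 in replicates 1 and 2 and 49740 to 64560 in the duct. The s-shaped body arrays also had higher levels of markers of stroma, endothelium and erythroid cells, although the submitters state that staining and RT-PCR were used to check identity and to exclude other tissue. Of 12 stroma markers 10 were tested, and all 10 were higher there than in each other structure (adjusted p under 0.05, limma). The stroma sum was 26870 to 34050 in the s-shaped body, 1377 to 2858 in the renal vesicle and 1733 to 1965 in the collecting duct. Of these 10, 4 passed the filter only through the s-shaped body arrays (above the array median on fewer than 3 of the others), so that their differences were bound to be large. Endothelium markers were higher in 9 of 9 tested of 11, of which 7 passed only in that way, with sums of 10210 to 11730 against 711.4 to 1128 and 841.6 to 1213. Erythroid markers were higher in 3 of 3 tested of 5, of which 2 passed only in that way, with sums of 18120 to 21770 against 430 to 2560 and 79.78 to 2435. Hbb-y made up most of that sum (17130 to 20920 on the s-shaped body arrays). Hba-a1 was under the filter, and its range there (39.84 to 80.46) overlapped with the renal vesicle (23.67 to 44.71) and the duct (46.3 to 68.65). Of 5 macrophage markers Csf1r alone was tested, and it was higher, at 2696 to 3115 on the s-shaped body arrays, 141.7 to 316 in the renal vesicle and 267.4 to 397.5 in the duct. It made up most of the sum of that list (2957 to 3402 on the s-shaped body arrays), while the defining leukocyte marker Ptprc was not raised (64.4 to 97.66 there, 99.21 to 236 and 67.11 to 100.5 elsewhere), nor was Cd68 (45.17 to 55.88 there, 30.08 to 69.38 and 54.46 to 99.64 elsewhere). None of these markers was at 0 in any array. The part of these cells in the values below was not tested, and in such samples fewer cells of a type and less RNA per cell cannot be told apart.

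**Figure D2:**
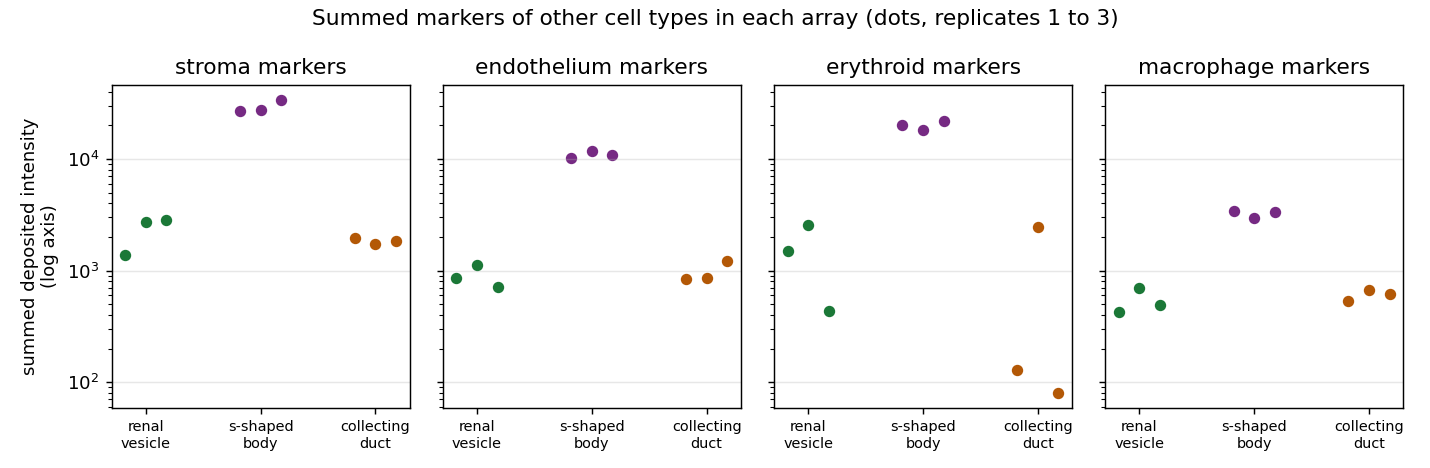
Dots give, for each array, the summed deposited intensity (log axis) of the markers of stroma, endothelium, erythroid cells and macrophages. The 3 s-shaped body arrays lie above all others in each panel, at 26870 to 34050 for stroma and 10210 to 11730 for endothelium. In the macrophage panel the gap is that of Csf1r, and in the erythroid panel it is mostly that of Hbb-y.

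The ligand gene Igf1 was highest in the s-shaped body. Its probe set 1437401_at read 423.4, 327.1 and 356.8 on the s-shaped body arrays, 72.25, 111.9 and 86.25 in the renal vesicle and 70.72, 56.73 and 90.54 in the collecting duct. The s-shaped body arrays lay above all others, and the ranges of the other structures overlapped in deposited intensity, though not after normalization. The s-shaped body exceeded the collecting duct by 2.05 (SE 0.21, n = 3 arrays per structure), a 4.13-fold difference, and the renal vesicle by 1.63 (SE 0.21). The renal vesicle stood 0.42 (SE 0.21) above the duct. Igf1 passed the intensity filter through its s-shaped body arrays alone, since it was below the array median in all 6 others. The summed stroma, endothelium and erythroid markers were high in the same 3 arrays, as was Csf1r but not Ptprc or Cd68.

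The receptor gene Igf1r, whose product is the kinase that carries the signal of IGF1 and IGF2 into the cell, differed less. Probe set 1426565_at read 417.9, 397.6 and 429.5 on the s-shaped body arrays, 196.5, 151.1 and 375.2 in the renal vesicle and 107.6, 115.9 and 257.4 in the collecting duct. The s-shaped body values were tight and the highest, while in each of the other structures replicate 3 was the brightest array for this gene. The means stood in the order s-shaped body, renal vesicle, collecting duct (8.74 ± 0.058, 8.06 ± 0.59 and 7.43 ± 0.58, log2, SD, n = 3). The renal vesicle and the duct overlapped, and after normalization the renal vesicle also overlapped with the s-shaped body. The difference of s-shaped body from collecting duct was 1.32 (SE 0.32), a 2.49-fold difference. That from the renal vesicle was 0.68 (SE 0.32), and 1.00 without renal vesicle replicate 3. Renal vesicle and duct differed by 0.63 (SE 0.32), by 0.31 without renal vesicle replicate 3 and by 0.98 without collecting duct replicate 3.

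Among the binding proteins, Igfbp4, which inhibits IGF action and is cut by the protease PAPPA, separated both nephron structures from the duct. Its brightest probe set, 1437405_a_at, read 366.2, 340.8 and 390.2 in the collecting duct, 5315, 4870 and 4963 in the renal vesicle and 6705, 6274 and 5309 in the s-shaped body. The nephron structures overlapped with each other in deposited intensity, though not after normalization, and lay far above the duct. The renal vesicle exceeded the duct by 3.66 (SE 0.15), or 12.6-fold, and the s-shaped body by 4.01 (SE 0.15), or 16.2-fold. The s-shaped body stood 0.36 (SE 0.15) above the renal vesicle, a gap that median centring in place of quantile normalization took to 0.12 and that did not pass the threshold. The 3 renal vesicle arrays had an SD of 0.055 log2 units, against a median of 0.185 over all genes.

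Igfbp5, whose product binds IGFs and extracellular matrix, was highest in the duct. Its probe set 1452114_s_at read 5346, 5697 and 5467 in the collecting duct, 1532, 1188 and 1220 in the s-shaped body and 315.9, 328.7 and 242.7 in the renal vesicle. All arrays of each structure lay apart from those of the next. The duct was 17.3-fold above the renal vesicle (log2 difference of renal vesicle from duct -4.12, SE 0.17) and 4.35-fold above the s-shaped body (-2.12, SE 0.17). The s-shaped body was in turn 3.98-fold above the renal vesicle (1.99, SE 0.17). Igfbp5 was the member with its highest mean in the collecting duct, where the summed stroma markers were 1733 to 1965. Its neighbour on chromosome 1, Igfbp2, had another order.

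Igfbp3, which encodes the main IGF carrier of the blood, was bright in 1 structure. Probe set 1423062_at read 2000, 1604 and 1656 on the s-shaped body arrays, 32.43, 5.25 and 3.49 in the renal vesicle and 13.66, 5 and 27.06 in the collecting duct. The s-shaped body arrays stood at the 90.1 to 91.8 percentile of their array and the 6 others at the 3.42 to 25 percentile. The s-shaped body exceeded each other structure by 5.51 (SE 0.30), a 45.6-fold difference. That size rests on the pseudocount, because the low side is near the bottom of the array. The difference from the collecting duct was 6.29 with a pseudocount of 10 and 4.01 with 100. Renal vesicle and duct could not be ordered (difference -0.001, SE 0.30). Like Igf1, Igfbp3 passed the filter through the s-shaped body arrays, in which the stroma and endothelium markers were high.

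Igfbp7, a lower-affinity member known from blood vessel walls, was bright in all structures and highest in the s-shaped body. Probe set 1423584_at read 10390, 8885 and 8842 there, 2102, 2928 and 3166 in the collecting duct and 677, 837.7 and 3051 in the renal vesicle. Renal vesicle replicate 3 lay within the range of the duct, and replicates 1 and 2 lay below it. The s-shaped body exceeded the duct by 1.84 (SE 0.41), or 3.58-fold, and the renal vesicle by 2.96 (SE 0.41), or 7.77-fold. The renal vesicle differed from the duct by -1.12 (SE 0.41) with all arrays, by -1.75 without its replicate 3, by -1.32 without collecting duct replicate 1, by -0.74 without its replicate 1 and by -0.87 without its replicate 2. The renal vesicle SD of 1.11 was larger than that of 99.4% of the genes tested. In the same replicate 3 the summed s-shaped body markers were 11210, whereas its endothelium sum of 711.4 was the lowest of the 3 renal vesicle arrays and its stroma sum of 2858 was close to the 2717 of replicate 2.

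Igfbp2, whose product binds both IGFs, was highest in the renal vesicle. Probe set 1454159_a_at read 347.2, 426.4 and 211 in the renal vesicle, 169.8, 181.9 and 134.4 in the collecting duct and 88.23, 92.5 and 124.5 in the s-shaped body. The 3 structures did not overlap, although renal vesicle replicate 3 came close to the duct. The renal vesicle exceeded the duct by 1.00 (SE 0.25), or 2-fold, and by 0.81 without its replicate 1 or without its replicate 2. The s-shaped body was 2.89-fold below the renal vesicle (-1.53, SE 0.25) and 1.44-fold below the duct (-0.53, SE 0.25). Igfbp2 was the member with its lowest mean in the s-shaped body. It passed the intensity filter only through its renal vesicle arrays, being above the array median on 2 duct arrays and 0 s-shaped body arrays.

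Igfbp6, whose product prefers IGF2 over IGF1, had small differences. Its probe set read 211.8, 275.2 and 395.3 on the s-shaped body arrays, 162.6, 166.7 and 183.1 in the renal vesicle and 100.4, 126.2 and 147.2 in the collecting duct. The structures did not overlap, and the s-shaped body arrays were spread widely. The s-shaped body exceeded the duct by 1.07 (SE 0.22), or 2.11-fold, and by 0.86 without s-shaped body replicate 3, its brightest array. It exceeded the renal vesicle by 0.52 (SE 0.22), which dropped to 0.30 without the same array. The renal vesicle stood 0.55 (SE 0.22) above the duct.

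**Figure D3:**
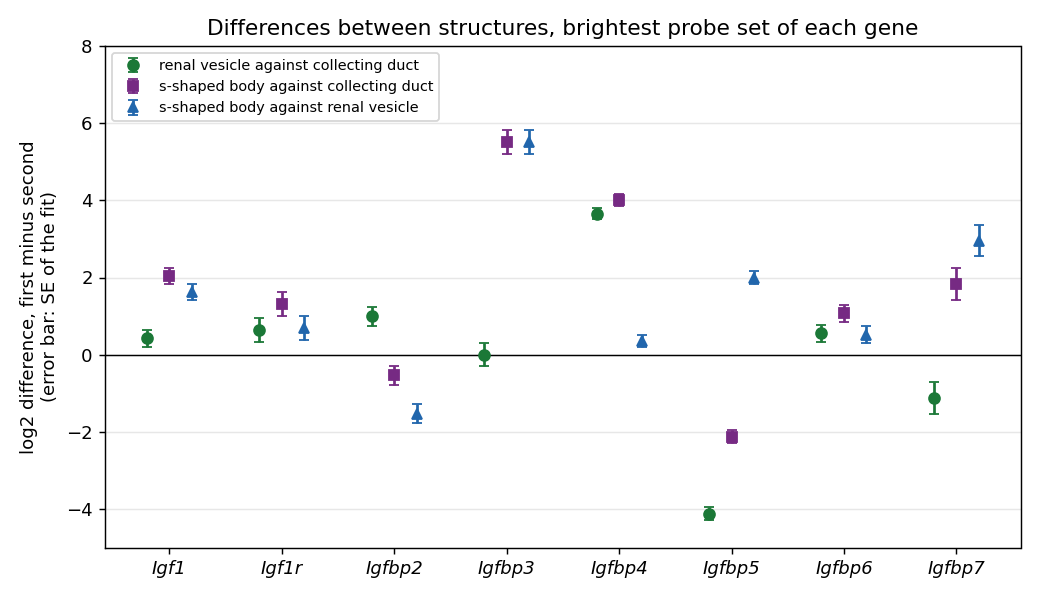
Points give the log2 difference between structures (first named minus second named) for the chosen probe set of each gene, with the SE of the fit over 9 arrays as error bars. Igfbp4 lies above 0 and Igfbp5 below 0 in both comparisons with the collecting duct, and Igfbp3 lies at 5.51 in both comparisons of the s-shaped body.

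A large share of all genes passed the threshold (adjusted p under 0.05, limma), and the members' counts stand beside that share. Between renal vesicle and collecting duct 31.5% of 7998 genes passed, 15.6% higher and 15.9% lower. Of the 8 members 3 passed, with Igfbp2 and Igfbp4 higher and Igfbp5 lower in the renal vesicle. Igfbp2 had passed the filter only through the renal vesicle arrays, and of the 7 other members 1 was higher and 1 lower. The Igfbp2 call was lost without renal vesicle replicate 1, and Igfbp7 passed without renal vesicle replicate 3 or without collecting duct replicate 1. Igf1r passed without collecting duct replicate 3, and Igfbp6 without s-shaped body replicate 3. After normalization the arrays did not overlap for 4 members that were higher and 1 that was lower, beside 43.3% of all genes (21.2% higher, 22.1% lower).

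Between s-shaped body and collecting duct 32.8% of genes passed, 16.9% higher and 15.9% lower. There 7 members passed, of which Igfbp5 was lower and Igf1, Igf1r, Igfbp3, Igfbp4, Igfbp6 and Igfbp7 were higher in the s-shaped body. Igf1 and Igfbp3 had passed the filter only through the s-shaped body arrays, and of the 6 other members 4 were higher and 1 lower. Arrays did not overlap for 6 members that were higher and 2 that were lower, beside 43.9% of all genes (21.3% higher, 22.6% lower). Between s-shaped body and renal vesicle 36.3% of genes passed, 18.5% higher and 17.8% lower. There 5 members passed, with Igfbp2 lower and Igf1, Igfbp3, Igfbp5 and Igfbp7 higher in the s-shaped body. Of the 7 members other than Igfbp2, 4 were higher and 0 lower, and of the 6 other than Igf1 and Igfbp3, 2 were higher and 1 lower. Arrays did not overlap for 6 members that were higher and 1 that was lower, beside 52.9% of all genes (26% higher, 26.9% lower). The count of 5 was 3 without s-shaped body replicate 2 or without s-shaped body replicate 3, when Igf1 and Igfbp3 no longer passed the filter and 6 members were left to test. Igf1r passed there without renal vesicle replicate 3 or without collecting duct replicate 3, Igfbp4 without collecting duct replicate 3 and Igfbp6 without s-shaped body replicate 1. The 3 comparisons share arrays, and the members were chosen with them known, so nothing is read from these counts. The median difference of the members was 0.49, 1.58 and 1.16 in the order of the comparisons above, beside 0.006, -0.03 and -0.03 over all genes.

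Probe sets of the same gene gave differences of unlike size, and in a few cases of unlike sign. For Igfbp4, 6 probe sets were on the array, and the 5 that passed the filter put the renal vesicle 0.83 to 4.62 above the duct and the s-shaped body 0.93 to 4.94 above it. The sixth, 1421991_a_at, read 7.63 to 24.71 in all 9 arrays and gave 0.02 and 0.14. The widest gap came from 1437406_x_at, with 5289, 4603 and 3860 in the renal vesicle against 202.7, 153.5 and 139 in the duct. For Igfbp5 the dimmer probe set 1422313_a_at kept the duct highest but gave only -0.93 (SE 0.28) for the renal vesicle and -0.81 (SE 0.28) for the s-shaped body. It also showed no clear step between the nephron structures (0.13, SE 0.28), in contrast to the 1.99 of the brighter one.

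For Igfbp7, probe set 1423585_at gave 1.51 (SE 0.30) for the s-shaped body and -0.41 (SE 0.30) for the renal vesicle against the duct. It too had its brightest renal vesicle value, 108.5, in replicate 3, beside 52.6 and 39.25. The third Igfbp7 probe set read 22.07 to 37.4 throughout and was under the filter. The other Igf1 probe sets were also under the filter, and put the s-shaped body 1.11 (SE 0.36) and 0.89 (SE 0.47) above the duct. The dimmest, 1452014_a_at, put the renal vesicle below the duct (-0.58), opposite in sign to the 0.42 of the probe set chosen. The dim Igf1r probe set 1452108_at read 90.43 to 138.5 in the renal vesicle, overlapping the s-shaped body range of 97.14 to 125.4, and its 0.30 (SE 0.23) against the duct is smaller than the 1.32 of the probe set chosen. It also put the s-shaped body slightly below the renal vesicle (-0.15, SE 0.23). In total 14 of the 19 probe sets passed the filter.

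**Figure D4:**
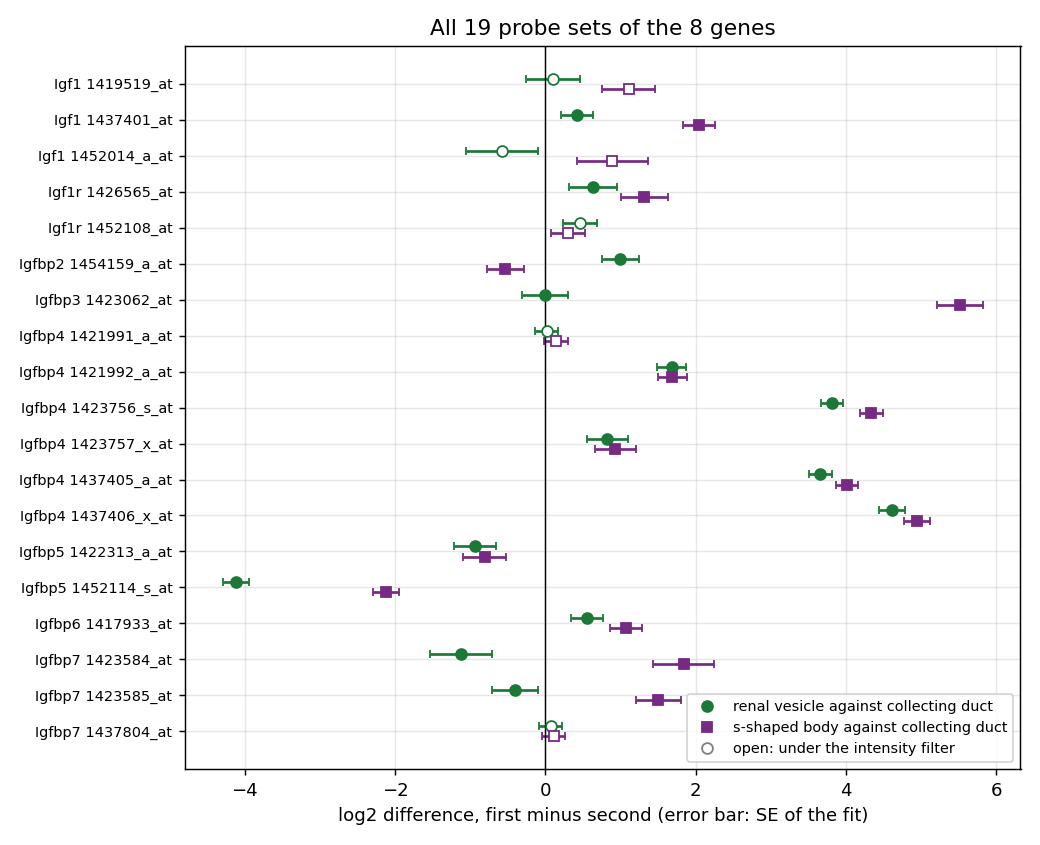
Each row is 1 of the 19 probe sets, with its log2 difference from the collecting duct for the renal vesicle (circles) and the s-shaped body (squares), error bars giving the SE of the fit and open symbols marking probe sets under the intensity filter. The Igfbp4 probe sets range from 0.02 to 4.62 for the renal vesicle, and the Igfbp5 probe sets lie at -0.93 and -4.12.

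Genes with the most similar profile were found by the root-mean-square distance over the 9 arrays, each gene centred on its own mean. Closest to Igfbp4 were Gas1 (distance 0.20 log2 units), St3gal6 (0.26) and the cadherin gene Cdh11 (0.33), with mean log2 levels of Gas1 at 7.23 in the duct, 11.17 in the renal vesicle and 11.47 in the s-shaped body. Closest to Igfbp3 were the transcription factor genes Mef2c (0.47) and Sox17 (0.55) and the surface protein gene Cd248 (0.64). Igfbp5 lay nearest to the nuclear receptor gene Pparg (0.39), the imprinted RNA gene Meg3 (0.41) and Nr4a1 (0.46). Igfbp7 lay nearest to the integrin gene Itgb5 (0.34), Cpeb4 (0.35) and Mxd4 (0.37). Igfbp2 lay nearest to Gnl3 (0.14), Mdm1 (0.18) and the DNA primase gene Prim1 (0.19), and Igf1 to Edil3 (0.13), Lmo7 (0.14) and the angiogenic factor gene Vegfa (0.16). Igf1r was closest to Hagh (0.19), Prss12 (0.20) and Dock5 (0.22), and Igfbp6 to Mafg (0.12), Mtrr (0.18) and Rora (0.19).

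Other genes of the pathway came from a list of 54, of which 41 were on the array with 1 symbol and 33 passed the filter. This list too was drawn up with earlier results of these data known. Between renal vesicle and collecting duct 2 were higher, 7 lower and 24 did not pass, with a median of -0.06 beside 0.006 over all genes. Ins2 and Sos1 would not have passed the filter without the renal vesicle arrays, and of the 31 others 1 was higher and 7 lower. Between s-shaped body and collecting duct 8 were higher, 4 lower and 21 did not pass (median 0.34 beside -0.03). Between s-shaped body and renal vesicle 11 were higher, 2 lower and 20 did not pass (median 0.32 beside -0.03). The shares over all genes are those given above for the members. Of the 33, 4 would not have passed the filter on the other arrays (Htra1, Pappa, Esm1 and Sos1, above the median on fewer than 3 arrays outside the s-shaped body), and of the 29 others 4 were higher than in the duct and 8 higher than in the renal vesicle. Without s-shaped body replicate 3 the number called was 7 against the duct and 8 against the renal vesicle, of 30 genes tested, in place of 12 and 13. Against the duct it was 8 without s-shaped body replicate 1 or without replicate 2. Between renal vesicle and duct, 9 in all, it was 6 without renal vesicle replicate 1.

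The fetal ligand gene Igf2 was bright throughout and highest in the duct. It read 6165, 8158 and 10040 in the collecting duct, 5339, 4981 and 5206 in the renal vesicle and 4791, 5147 and 5288 in the s-shaped body, so the duct did not overlap with either. The renal vesicle differed from the duct by -0.71 (SE 0.13, adjusted p = 0.00099) and the s-shaped body by -0.65 (SE 0.13, adjusted p = 0.0015). The clearance receptor gene Igf2r was higher in the s-shaped body than in the renal vesicle by 0.67 (SE 0.17, adjusted p = 0.0087). It did not pass against the duct for the renal vesicle (-0.31, adjusted p = 0.20) or the s-shaped body (0.36, adjusted p = 0.13). Leaving out collecting duct replicate 1 took the former to -0.47 (adjusted p = 0.044) and leaving out collecting duct replicate 3 took the latter to 0.47 (adjusted p = 0.049). The insulin receptor gene Insr passed the filter only through the collecting duct arrays (above the array median on fewer than 3 of the others). Its differences from the duct are therefore given as a description, without p-values (-0.40 for the renal vesicle and -0.55 for the s-shaped body). Neither was called, though the second was without an intensity trend in the fit. Between the nephron structures Insr did not pass (-0.15, adjusted p = 0.64).

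Genes for proteases of the binding proteins and for inhibitors of these proteases made up 4 of those tested. Of these, 3 were higher in the s-shaped body than in the duct (adjusted p under 0.05, limma), beside 16.9% of all genes. Higher than in the renal vesicle were 2, namely Htra1 and Pappa, beside 18.5% of all genes. Htra1 and Pappa are also among the 3, and like Esm1 they passed the filter only through the s-shaped body arrays. Their differences therefore had to be large and are given as a description, without p-values. Of the others, Stc2 was called against the duct alone and Stc1 in neither comparison. Htra1, a secreted serine protease that cuts IGF-binding proteins, read 612.7, 563.9 and 570.1 on the s-shaped body arrays and 7.23 to 15.02 on the 6 others. Its difference was 4.04 from the duct (SE 0.22) and 3.95 from the renal vesicle (SE 0.22). The size rests on the pseudocount, with 4.84 from the duct and 4.70 from the renal vesicle at a pseudocount of 10 and 2.61 and 2.62 at 100. Pappa, the protease that cuts IGFBP4, read 157.3, 218.6 and 199.4 on the s-shaped body arrays, 36.72, 31.2 and 105.6 in the renal vesicle and 42.55, 15.61 and 16.14 in the duct. Its difference was 2.12 (SE 0.35) from the duct, 2.63 and 1.23 at pseudocounts of 10 and 100, and 1.33 (SE 0.35) from the renal vesicle. Stc2, whose product inhibits PAPPA, was 1.02 higher than in the duct (SE 0.23, adjusted p = 0.0041), and its 0.55 from the renal vesicle did not pass (adjusted p = 0.077). Esm1, a secreted protein gene of endothelium with an IGFBP-type domain, read 406.5, 282.8 and 279.2 on the s-shaped body arrays, 2.91, 2.49 and 2.8 in the renal vesicle and 5.08, 5.85 and 3.37 in the duct. Its differences of 3.46 from the duct and 3.52 from the renal vesicle (SE 0.27 each) became 2.00 and 2.03 at a pseudocount of 100, and the former 4.47 at 10. The endothelium markers were high in the same arrays. None of Htra1, Pappa and Esm1 could be tested when an s-shaped body array was left out. The binding protein gene Igfbp1, under the filter, read 130.5 to 163.3 in the s-shaped body, 9.53 to 89.17 in the renal vesicle and 8.14 to 50.79 in the duct. Igfals, for the acid-labile subunit that joins IGFBP3 in the blood, read 108.7 to 140.2, 9.91 to 33.66 and 34.84 to 144.2.

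Of 7 tested adaptor genes, 3 were lower in the renal vesicle than in the duct (Irs1, Gab1 and Grb14) and 1 was higher (Sos1). Over all genes 15.9% were lower and 15.6% higher, and Sos1 would not have passed the filter without the renal vesicle arrays. Irs1, the insulin receptor substrate gene, read 1633, 1649 and 1082 in the duct, 1624, 1692 and 1577 in the s-shaped body and 549.7, 596 and 542.8 in the renal vesicle. Its renal vesicle level differed from that of the duct by -1.27 (SE 0.17, adjusted p = 0.00013), and its s-shaped body level exceeded that of the renal vesicle by 1.48 (SE 0.17, adjusted p = 3.7e-05). Gab1, an adaptor gene, was below its duct level both at the vesicle stage (-1.57, SE 0.16, adjusted p = 1.5e-05) and in the s-shaped body (-0.99, SE 0.16, adjusted p = 0.00044). Grb14, an inhibitory adaptor gene, was lowest in the s-shaped body, by -2.15 from the duct (SE 0.23, adjusted p = 1.2e-05) and -1.44 from the renal vesicle (SE 0.23, adjusted p = 0.00042). Pik3r1, a regulatory subunit gene of PI3-kinase, was lower in the renal vesicle than in the duct (-0.87, SE 0.19, adjusted p = 0.0048). Foxo1, a transcription factor gene restrained by this signal, was 1.20 higher in the s-shaped body than in the renal vesicle (SE 0.20, adjusted p = 0.00068).

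Sos1, the exchange factor gene upstream of RAS, exceeded its duct level by 1.07 in the renal vesicle (SE 0.31), by 0.90 without renal vesicle replicate 1 and by 1.02 without replicate 3, and the call was lost without either. With a pseudocount of 100 it was 0.52. It too passed the filter on few arrays, at most 2 of them outside the renal vesicle. Of the genes for IGF2 mRNA-binding proteins, Igf2bp1 was higher than in the duct in both nephron structures (1.38, SE 0.29, adjusted p = 0.0029, and 1.17, SE 0.29, adjusted p = 0.0073). Igf2bp3 was lower in both (-0.97, SE 0.20, adjusted p = 0.0028, and -1.68, SE 0.20, adjusted p = 3.2e-05). It was also lower in the s-shaped body than in the renal vesicle (-0.70, adjusted p = 0.016). That call was lost without renal vesicle replicate 1 (-0.68, adjusted p = 0.051) or replicate 2 (-0.70, adjusted p = 0.050) and without s-shaped body replicate 1 (-0.62, adjusted p = 0.064) or replicate 3 (-0.64, adjusted p = 0.064).

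**Figure D5:**
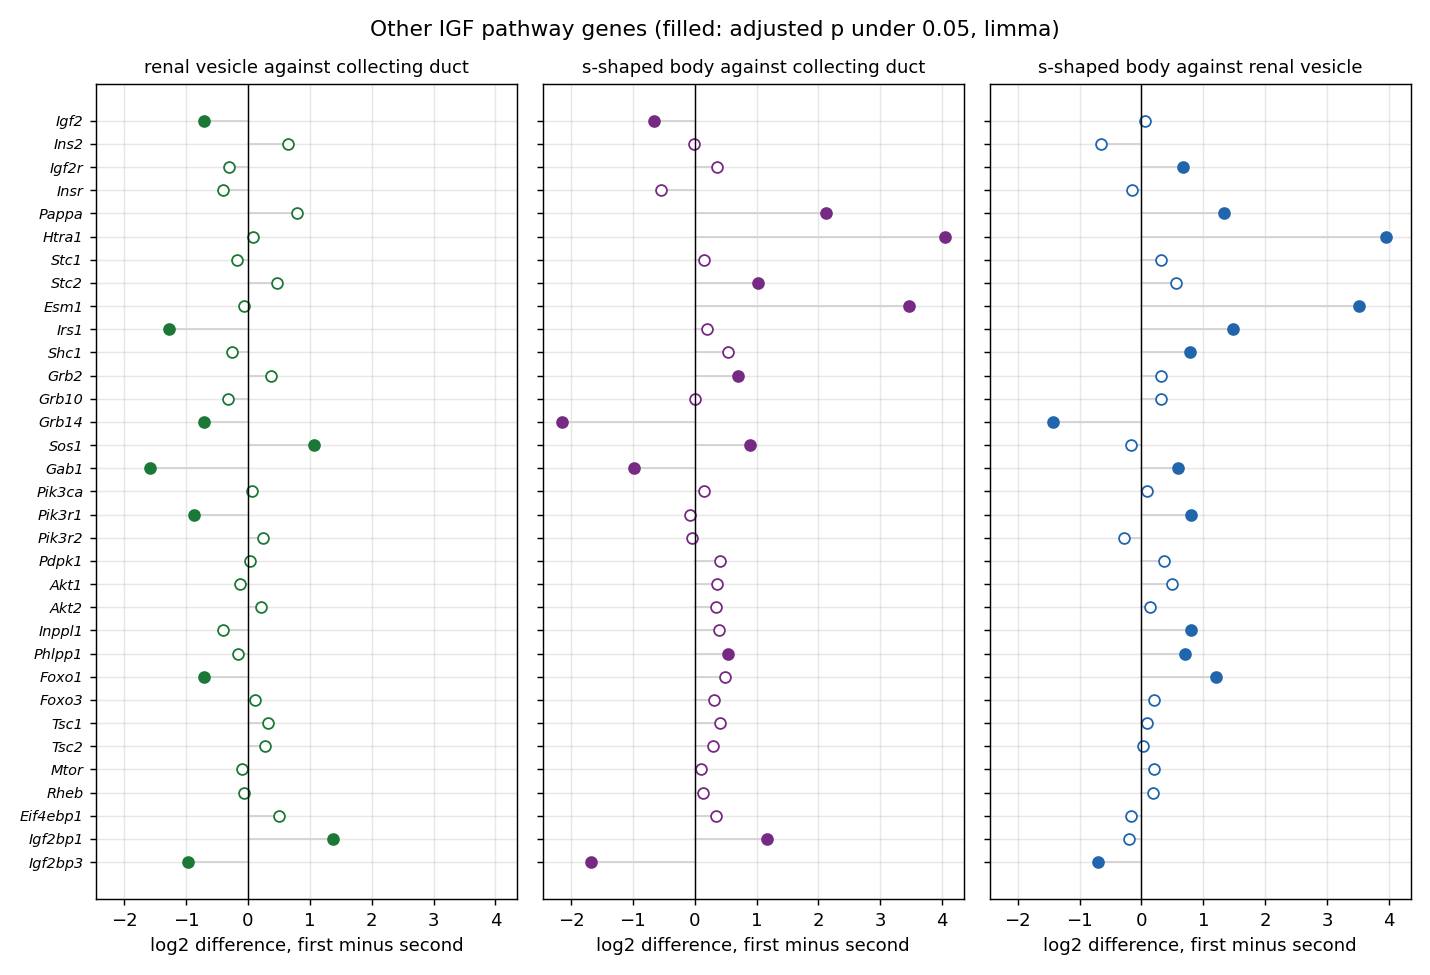
Points give the log2 difference of the 33 other IGF pathway genes in each comparison (first named minus second named), filled where the adjusted p was under 0.05 (limma). With the pseudocount of 26, Htra1 and Esm1 lie farthest to the right in both comparisons of the s-shaped body, at 4.04 and 3.46 against the collecting duct (2.61 and 2.00 with 100), both being near the bottom of the other arrays, and Grb14 lies farthest to the left there.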

How the data were processed

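The deposited table held intensity per probe set on a linear scale; per the submitters' processing notes it came from GCOS (Affymetrix software, version not given), and the algorithm is not given in the sources used here. Trimmed means were nearly equal (500.19 to 500.25), array medians were 112.2 to 144.8, and no detection calls were used. The pseudocount of 26 was the 20th percentile of all values. Array medians then differed by 0.305 log2 units, above the limit of 0.25, so arrays were quantile normalized. Genes came from the platform annotation of the array: 20380 probe sets had 1 symbol, 691 several and 1555 none, and 20351 of the first matched RefSeq identifiers without a change of name. Of 11597 one-symbol probe sets above the filter, the brightest per gene gave 7998 genes.

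All 9 arrays were fitted with limma 3.58.1 in R 4.3.3 (lmFit, eBayes with intensity trend, 6 residual degrees of freedom), two-sided, with Benjamini-Hochberg adjustment over all genes. Probe sets not chosen were fitted over all one-symbol probe sets without the filter. The procedure was also run on simulated data with independent noise and far fewer changed genes than were called here, so nothing is read from that run. The text names all members, Igf2, Igf2r, Insr, up to 5 called and non-overlapping pathway genes per direction, and the 3 nearest profiles of each member whose structure means spanned at least 1 log2 unit; Igfbp1, Igfals and the markers named were added after their values were seen. Members and lists were chosen with earlier results of these data known. Precision is limited by 3 arrays per structure.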

Additional observations from a re-analysis of the deposited data

How the results depend on the processing

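Of 474 member differences recomputed under 21 alternatives, 452 moved by no more than the replicate SD, and 0 of the called ones changed sign. The fit did not pair arrays by replicate number. Same-numbered deviations correlated at -0.034 to 0.161 over genes and differently numbered ones at -0.155 to 0.149. Whether arrays of the same number share a batch was not tested. With a replicate block the genes called were 2605, 2646 and 2997, in place of 2519, 2626 and 2905, in the order of the comparisons in the text (renal vesicle against duct first, the nephron structures last). In that order, the block called 4, 7 and 6 members, in place of 3, 7 and 5, and 9, 12 and 14 other pathway genes, in place of 9, 12 and 13; it added Igfbp7 to the first comparison and Igf1r to the last. The stricter filter, which left 4 members and 20 pathway genes, gave 1648 genes, 4 members and 7 pathway genes for s-shaped body against duct and 3 members for s-shaped body against renal vesicle. Array weights called 7 members and 14 pathway genes for renal vesicle against duct and 8 members for s-shaped body against renal vesicle, and the cause was not tested. Leaving out each array in turn gave 3 to 7 members for s-shaped body against renal vesicle, and 7 to 14 and 8 to 15 pathway genes for the s-shaped body comparisons; without an s-shaped body array 6 members and 30 pathway genes were left to test. Median centring gave 1560 genes higher and 1045 lower in the renal vesicle than in the duct, against 1250 and 1269, and took the median of all genes to 0.11 there and to -0.11 for s-shaped body against renal vesicle. Dim genes are limited by signal over background, as the Igfbp3 range of 4.01 to 6.29 against the duct shows.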
